A study of Sus scrofa with 8 samples.

Results

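The genes flanking CFTR on pig chromosome 18 were examined in the olfactory epithelium of newborn piglets that lacked a functional CFTR gene. The members were 10 named neighbours of CFTR (TFEC, TES, CAV2, CAV1, MET, CAPZA2, ST7, WNT2, ASZ1 and CTTNBP2), taken by gene symbol from 25880 pig genes in the count table. Of these 10, 9 passed the filter on low counts and ASZ1 did not. The samples were 4 libraries labelled CFTR knock-out piglet (piglets 6, 18, 20 and 21) and 4 libraries labelled wild type piglet (piglets 5, 9, 12 and 23). The labels describe the mutant animals as CFTR-null and give neither the allele nor litter, sex or batch, and all 8 animals were newborn. Since every library carries its own piglet number, the spread behind the p-values is that between animals.

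CFTR encodes the chloride and bicarbonate channel whose loss causes cystic fibrosis. In human cells the gene sits in a chromatin domain whose regulatory elements and insulator sites separate it from its neighbours, which have unrelated functions and expression patterns. Neighbouring genes of a targeted locus are commonly examined because a targeted allele, or the chromosome segment inherited with it, can carry differences that reach beyond the gene itself. The neighbours here include a receptor tyrosine kinase (MET), a secreted Wnt ligand (WNT2), the coat proteins of caveolae (CAV1 and CAV2), actin-associated proteins (CAPZA2, TES and CTTNBP2), a transcription factor (TFEC), a germ-cell protein (ASZ1) and the membrane protein ST7.

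By the coordinates in the count table (build not stated), the 10 genes and CFTR covered 2.04 Mb of chromosome 18, from 28130114 to 30169386. CFTR spanned 28627719 to 28819815 on the minus strand. CTTNBP2 was the single member on the side of lower coordinates, at 28130114 to 28573158 on the plus strand, 54.6 kb from CFTR. On the other side followed ASZ1 (28859205 to 28910632, plus strand, 39.4 kb away), WNT2 (28946497 to 29028107, plus strand, 126.7 kb) and ST7 (29027811 to 29285386, minus strand, 208.0 kb). Farther out stood CAPZA2 (29314579 to 29365276, minus strand), MET (29426051 to 29541348, minus strand) and CAV1 (29648118 to 29682467, minus strand). CAV2 (29697188 to 29707277, minus strand), TES (29892028 to 29936366, minus strand) and TFEC (30122494 to 30169386, plus strand) ended the row, with TFEC 1302.7 kb from CFTR. The same interval held 12 further rows, namely the RNA-binding protein gene LSM8 and 11 identifiers with no symbol, none of which exceeded 3 reads in a library. WNT2 and ST7 lie on opposite strands and shared 260 exon bases at their ends, and CTTNBP2 and LSM8 shared 148. CAV2 shared 27 with an identifier on the opposite strand that had no symbol and 0 reads. Whether counting used strand is not given, so reads from these stretches are uncertain. ST7 also shared 109 exon bases with such an identifier on its own strand, where strand cannot tell the genes apart.

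Libraries held 39915150 to 43253395 counts in knockout piglets and 30836904 to 42281883 in wild-type piglets. The label of olfactory tissue was checked on 12 markers of mature olfactory neurons, of which 10 were matched and tested. Their summed level was 3521 to 4255 CPM in knockout and 2398 to 3829 CPM in wild-type libraries. Knockout piglet 18 stood apart, with 6639 CPM summed over bone markers against 203 to 366 CPM in the other knockout and 242 to 608 CPM in the wild-type libraries. Its fibroblast markers summed to 35800 CPM, against 1163 to 1979 CPM in the other knockout and 1611 to 4693 CPM in the wild-type libraries. In wild-type piglet 5, endothelial markers summed to 533 CPM, against 262 to 402 CPM in the knockout and 265 to 330 CPM in the other wild-type libraries.

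CFTR itself was lower in each knockout library than in each wild-type library, at 6.31, 5.24, 7.43 and 8.37 CPM (counts scaled to library size by TMM) in knockout piglets 6, 18, 20 and 21, against 56.6, 34.3, 34.0 and 36.6 CPM in wild-type piglets 5, 9, 12 and 23. The groups did not overlap, as in 5.81% of all tested genes (3.36% with knockout lower). The log2 fold change of knockout over wild-type was -2.56 ± 0.21 (SE), with an edgeR adjusted p of 0.0121. Without knockout piglet 6 the adjusted p of edgeR was 0.122, and without knockout piglet 20 it was 0.0545. Of the reads assigned to CFTR and its 10 neighbours together, CFTR took 2.60%, 1.93%, 2.85% and 3.71% in knockout piglets 6, 18, 20 and 21. In wild-type piglets 5, 9, 12 and 23 it took 14.3%, 13.8%, 12.9% and 13.3%. The share of CFTR in its own neighbourhood was thus nearly the same in the 4 wild-type animals and lower in the 4 knockout animals.

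No neighbour of CFTR passed the test. The edgeR test called 0 of the 9 tested members at an adjusted p of 0.05, against 0.00582% of all 17175 tested genes. DESeq2 called 0 members against 1.41% of the genes it gave an adjusted p, and limma with sample quality weights 0 against 0.064%. At an unadjusted p under 0.05 edgeR had 0 members, against 11.2% of all genes (5.4% higher and 5.8% lower in knockout piglets). In none of the 9 did the groups fail to overlap, against 5.81% of all genes. Log2 fold changes were negative in 6 members and positive in 3, while 48.4% of all genes were negative, and the members' median was -0.09 against 0.01 over all genes. The 95% intervals of the 9 members reached from -1.70 to 1.92, and each lay above the interval of CFTR, which ran from -3.04 to -2.08. For 6 members (CTTNBP2, ST7, CAPZA2, MET, CAV1 and TES) the interval stayed within a 2-fold change in either direction. The interval of WNT2 reached past a 2-fold fall, that of CAV2 just past a 2-fold rise and that of TFEC past both.

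**Figure D1:**
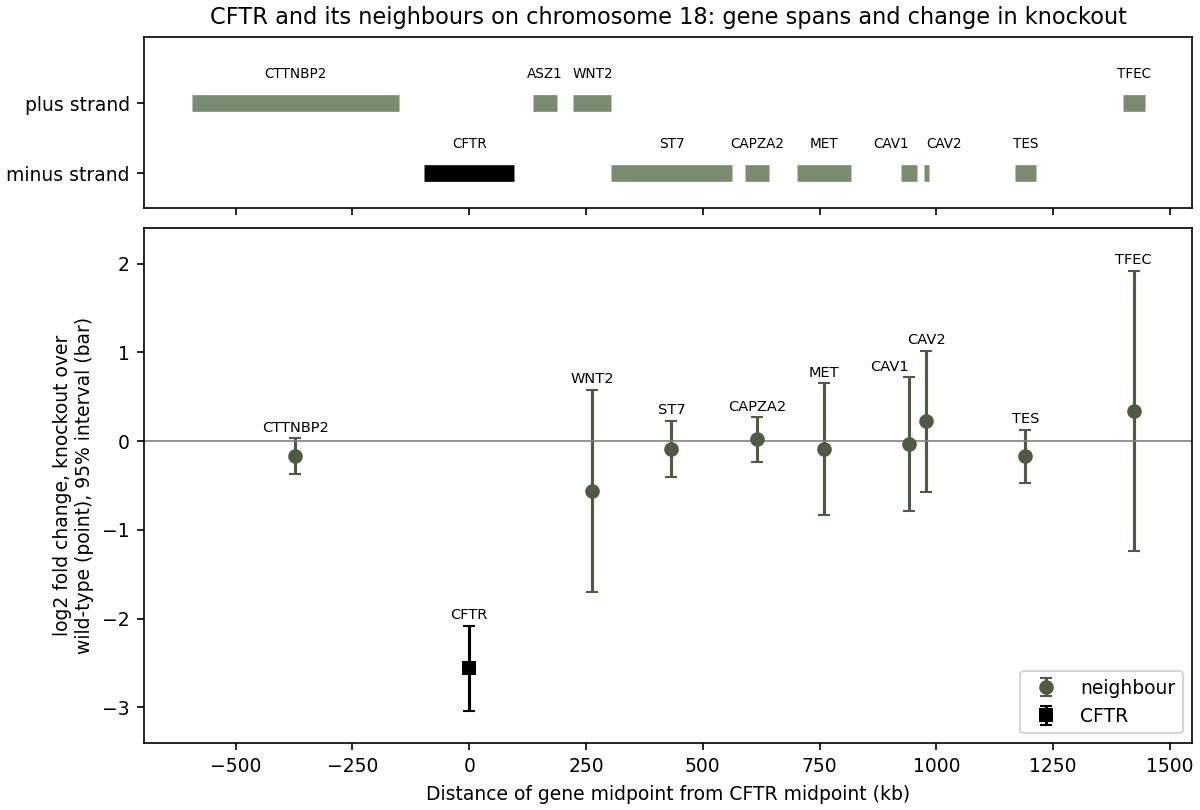
Upper panel, spans of CFTR (black) and its 10 neighbours by strand, to scale; lower panel, log2 fold change of knockout over wild-type with its 95% interval for CFTR and the 9 tested neighbours, against distance from CFTR in kb. CFTR stands at -2.56, and the intervals of the neighbours include 0 in each case.

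CTTNBP2, which binds cortactin and acts in dendritic spines of neurons, is the nearest tested gene. It had 44.1, 48.1, 51.9 and 43.2 CPM in knockout piglets 6, 18, 20 and 21, against 56.0, 51.0, 55.6 and 48.01 CPM in wild-type piglets 5, 9, 12 and 23. Knockout piglets 6 and 21 were below the 4 wild-type values, and knockout piglets 18 and 20 fell among them. The mean was 46.8 ± 4.0 CPM in knockout and 52.7 ± 3.85 CPM in wild-type piglets (SD, n = 4 each). Its log2 fold change was -0.17 ± 0.09 (95% interval -0.37 to 0.03, edgeR adjusted p = 0.481). Among the 9 members it had the smallest unadjusted p by edgeR, 0.0867, and its fold change stayed between -0.22 and -0.13 under 16 alternative settings, with an unadjusted p under 0.05 in edgeR without knockout piglet 20 (0.0376, adjusted p = 0.503). LSM8, which shares exon bases with it, averaged 22.4 ± 1.13 CPM in knockout and 25.1 ± 2.61 CPM in wild-type piglets (SD, n = 4 each), or -0.17 ± 0.10 on the log2 scale (edgeR adjusted p = 0.522).

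ASZ1, a germ-cell protein that acts in the piRNA pathway of the testis, lies next to CFTR on the other side. It had 0 reads in the 4 knockout libraries and in wild-type piglets 9, 12 and 23, and 4 reads in wild-type piglet 5. At the depth of the libraries, a count of 0 allows a level of up to 0.0683, 0.0836, 0.0684 and 0.0710 CPM in knockout piglets 6, 18, 20 and 21 (3 reads per library, counting error only). In wild-type piglets 9, 12 and 23 the limits were 0.0950, 0.0726 and 0.0698 CPM. ASZ1 was not detectable in either group beyond these limits except in that single library, at 0.0962 CPM, and no fold change is given.

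WNT2, a secreted ligand of the Wnt pathway, was rare. Its read counts were 11, 32, 28 and 20 in knockout piglets 6, 18, 20 and 21, and 65, 20, 17 and 30 in wild-type piglets 5, 9, 12 and 23. As CPM these were 0.251, 0.892, 0.638 and 0.473 in knockout, against 1.56, 0.633, 0.411 and 0.698 in wild-type piglets. Wild-type piglet 5 was the highest of the 8 libraries, knockout piglet 6 the lowest, and the remaining values were interleaved. Knockout over wild-type gave a log2 fold change of -0.56 ± 0.50 (95% interval -1.70 to 0.58, edgeR adjusted p = 0.654). Without wild-type piglet 5 it was -0.061, and between -0.86 and -0.31 without any other single library.

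ST7, a membrane protein first described as a candidate tumour suppressor, had 13.9, 19.2, 13.9 and 13.4 CPM in knockout piglets 6, 18, 20 and 21. Wild-type piglets 5, 9, 12 and 23 had 16.9, 15.1, 14.6 and 17.5 CPM. Knockout piglet 18 was the highest of the 8 libraries and the other 3 knockout piglets were the lowest 3. For ST7 the log2 fold change was -0.09 ± 0.14 (95% interval -0.41 to 0.23, edgeR adjusted p = 0.807). Without knockout piglet 18 it was -0.23. ST7L, the paralogue of ST7, averaged 30.1 ± 3.49 CPM in knockout and 29.9 ± 3.01 CPM in wild-type piglets (SD, n = 4 each), with 0.01 ± 0.11 on the log2 scale (edgeR adjusted p = 0.975; -0.0087 with upper-quartile scaling).

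MET, the receptor of hepatocyte growth factor, varied widely between animals. It had 57.5, 40.4, 61.8 and 39.8 CPM in knockout piglets 6, 18, 20 and 21, against 92.2, 28.2, 49.8 and 42.1 CPM in wild-type piglets 5, 9, 12 and 23. The wild-type group held both the highest library (piglet 5) and the lowest (piglet 9), and the knockout values lay between them. Means were 49.8 ± 11.4 CPM in knockout and 53.1 ± 27.6 CPM in wild-type piglets (SD, n = 4 each), with a log2 fold change of -0.09 ± 0.33 (95% interval -0.83 to 0.65, edgeR adjusted p = 0.920). The sign depended on single libraries: the log2 fold change was 0.31 without wild-type piglet 5 and 0.0028 without knockout piglet 21. It was -0.30 without wild-type piglet 9, and limma with sample quality weights gave 0.23.

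CAV1 and CAV2 encode caveolin-1 and caveolin-2, which form the coat of caveolae, small invaginations of the plasma membrane that abound in endothelium. CAV1 had 17.8, 25.8, 17.9 and 16.3 CPM in knockout piglets 6, 18, 20 and 21, against 36.8, 13.4, 13.7 and 15.5 CPM in wild-type piglets 5, 9, 12 and 23. CAV2 had 7.11, 11.5, 9.41 and 6.79 CPM in knockout piglets 6, 18, 20 and 21, against 13.3, 5.44, 4.14 and 6.84 CPM in wild-type piglets 5, 9, 12 and 23. For both genes wild-type piglet 5 was the highest library and knockout piglet 18 came next, while wild-type piglets 9 and 12 were the lowest. The same 2 libraries had the highest endothelial marker sums, 402 CPM in knockout piglet 18 and 533 CPM in wild-type piglet 5. Over the whole endothelial list 8 of 10 tested markers were negative (median on the log2 scale -0.12), none passed, and none of the 10 was at 0. The part of endothelial content in these values was not tested.

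The log2 fold change was -0.03 ± 0.33 for CAV1 (95% interval -0.79 to 0.72, edgeR adjusted p = 0.976). For CAV2 it was 0.23 ± 0.35 (-0.57 to 1.02, edgeR adjusted p = 0.805). Without wild-type piglet 5 the knockout values of CAV1 lay above the remaining 3 wild-type values and the log2 fold change became 0.44 (edgeR unadjusted p = 0.0325, adjusted p = 0.360). CAV2 then had 0.66 (edgeR unadjusted p = 0.0315, adjusted p = 0.360). CAV1 also turned positive without knockout piglet 6 (0.0075), 20 (0.0044) or 21 (0.043), while it was -0.20 without knockout piglet 18. CAV2 was 0.066 without knockout piglet 18, 0.023 without wild-type piglet 12 and 0.10 without wild-type piglet 9. In the fit with sex as a covariate, in which the 2 libraries with reads of Y-linked genes were both wild-type, CAV2 was -0.21. By its values that fit compared the knockout libraries with only wild-type piglets 5 and 23, and piglet 5 was the highest library. In bulk tissue, fewer cells of a type and less RNA per cell cannot be told apart.

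CAPZA2, a subunit of the protein that caps the fast-growing ends of actin filaments, had 66.6, 84.9, 65.6 and 67.2 CPM in knockout piglets 6, 18, 20 and 21, against 80.1, 70.3, 63.1 and 66.6 CPM in wild-type piglets 5, 9, 12 and 23. Knockout piglet 18 and wild-type piglet 5 were again the highest. The log2 fold change was 0.02 ± 0.11 (95% interval -0.23 to 0.27, edgeR adjusted p = 0.949). Its sign was negative without knockout piglet 18 (-0.076), wild-type piglet 12 (-0.032) or wild-type piglet 23 (-0.0024).

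TES encodes testin, a LIM domain protein of focal adhesions and actin fibres. It had 29.1, 34.2, 32.5 and 29.9 CPM in knockout piglets 6, 18, 20 and 21, against 41.0, 30.3, 29.1 and 41.0 CPM in wild-type piglets 5, 9, 12 and 23. Wild-type piglets 5 and 23 lay above the knockout range, wild-type piglet 9 within it and wild-type piglet 12 just below it. TES had a log2 fold change of -0.17 ± 0.13 (95% interval -0.47 to 0.13, edgeR adjusted p = 0.611). With sex as a covariate it was -0.38 (edgeR unadjusted p = 0.00466, adjusted p = 0.399). Both libraries with Y-linked reads were wild-type, so that fit set the knockout libraries against only the wild-type libraries without such reads. By the fitted values these were wild-type piglets 5 and 23, the same libraries that lay above the knockout range. The unadjusted p of that fit thus rests on them. The log2 fold change of TES was negative under each of the 16 alternatives.

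TFEC, a transcription factor of the MITF family known from macrophages and osteoclasts, was rare, with reads in each library. It had 10, 45, 11 and 6 reads in knockout piglets 6, 18, 20 and 21, and 24, 13, 8 and 12 reads in wild-type piglets 5, 9, 12 and 23. In CPM, knockout piglet 18 reached 1.25, against 0.142 to 0.251 in the other knockout and 0.194 to 0.577 in the wild-type libraries. TFEC had a log2 fold change of 0.34 ± 0.70 (95% interval -1.24 to 1.92, edgeR adjusted p = 0.861), and without knockout piglet 18 it was -0.81 (adjusted p = 0.500). Knockout piglet 18 also had the highest sum of macrophage markers, 324 CPM, against 61.6 to 79.0 CPM in the other knockout and 52.9 to 127 CPM in the wild-type libraries. Its osteoclast markers summed to 1062 CPM, against 4.62 to 12.7 CPM in the other knockout and 6.07 to 116 CPM in the wild-type libraries. Of 10 macrophage and 5 osteoclast markers tested, 9 and 5 had a positive log2 fold change, none passed, and none of either list was at 0. The part of these cells in the level of TFEC was not tested.

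**Figure D2:**
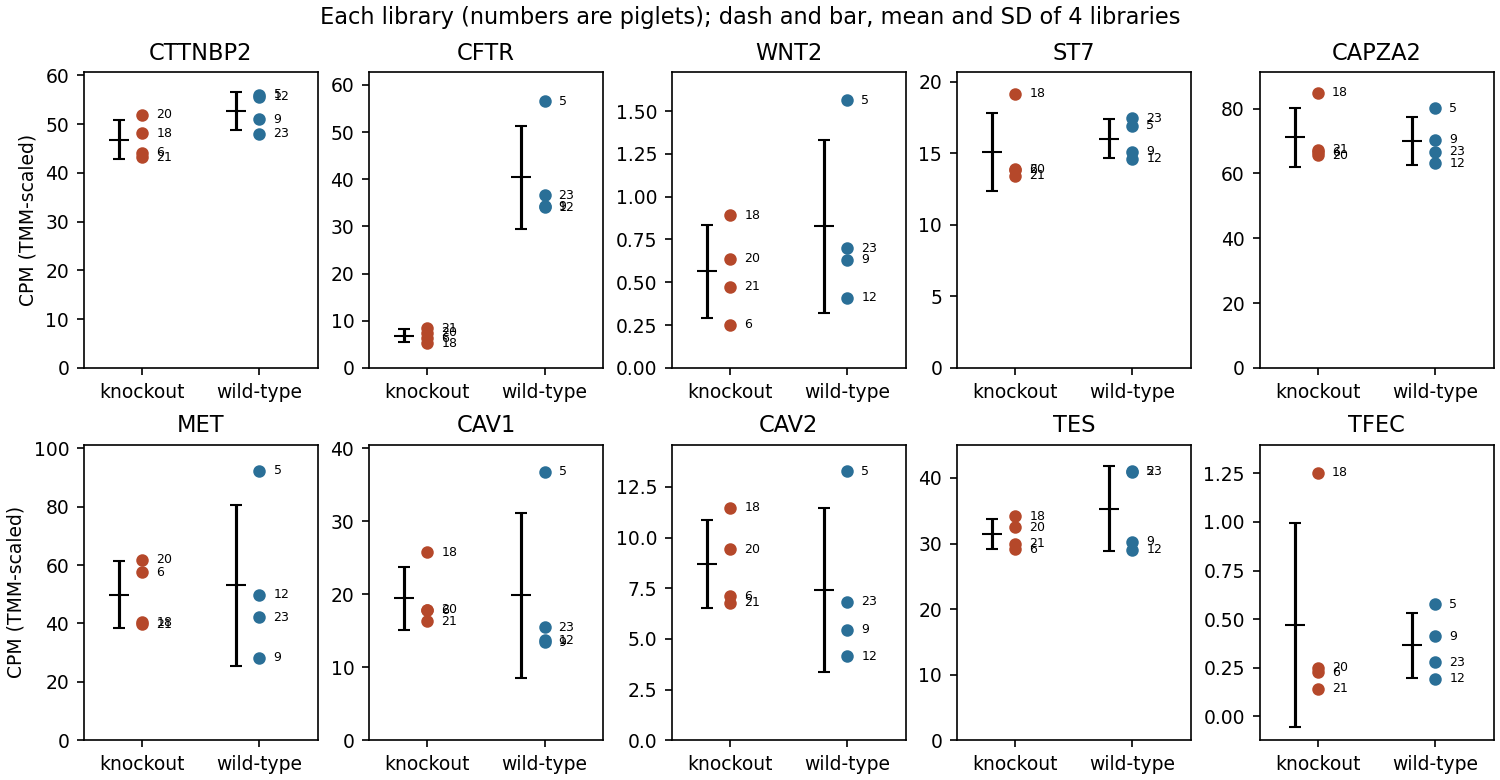
TMM-scaled CPM of CFTR and its 9 tested neighbours in each library, with knockout piglets left of wild-type piglets and the mean and SD of 4 libraries beside them; ASZ1 is not drawn. CFTR separates the groups, while the neighbours overlap, with wild-type piglet 5 highest in MET, CAV1, CAV2, WNT2, CTTNBP2 and TES and knockout piglet 18 highest in ST7, CAPZA2 and TFEC.

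The neighbours differed in how far animals of a group spread. The biological coefficient of variation estimated by edgeR was 11.8% for CTTNBP2, 13.3% for CAPZA2, 15.7% for TES and 17.3% for ST7. Each of these 4 was below the middle of all tested genes, at the 13.0, 24.5, 39.2 and 45.4 percentiles. MET (32.8%), CAV1 (33.8%) and CAV2 (36.5%) lay between the 77.2 and 81.8 percentiles. WNT2 (48.5%) and TFEC (64.7%), the rarest of the tested members, were at the 91.8 and 97.4 percentiles. CFTR was at 21.8%.

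Levels were compared between genes per kb of counted exon, as means over the 8 libraries. CAPZA2 was highest at 24.5 ± 2.69 CPM per kb (SD, n = 8) and did not overlap with any other member. MET (7.77 ± 2.96), CTTNBP2 (7.48 ± 0.720), CAV1 (7.12 ± 2.88) and TES (5.16 ± 0.773) followed, and neighbours in this order overlapped in range. ST7 stood at 2.43 ± 0.322 CPM per kb, below TES in each library, and overlapped with CAV2 at 1.65 ± 0.631. TFEC had 0.441 ± 0.387 and WNT2 0.116 ± 0.0671 CPM per kb, with ranges that overlapped, and ASZ1 was at or near 0. For comparison, CFTR had 1.001 ± 0.199 CPM per kb in knockout and 5.91 ± 1.59 CPM per kb in wild-type piglets (SD, n = 4 each). In wild-type tissue CFTR thus ranged with CAV1 (7.20 ± 4.12 CPM per kb) and TES (5.46 ± 1.01), and in knockout tissue it stood below CAV2 (1.78 ± 0.446).

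**Figure D3:**
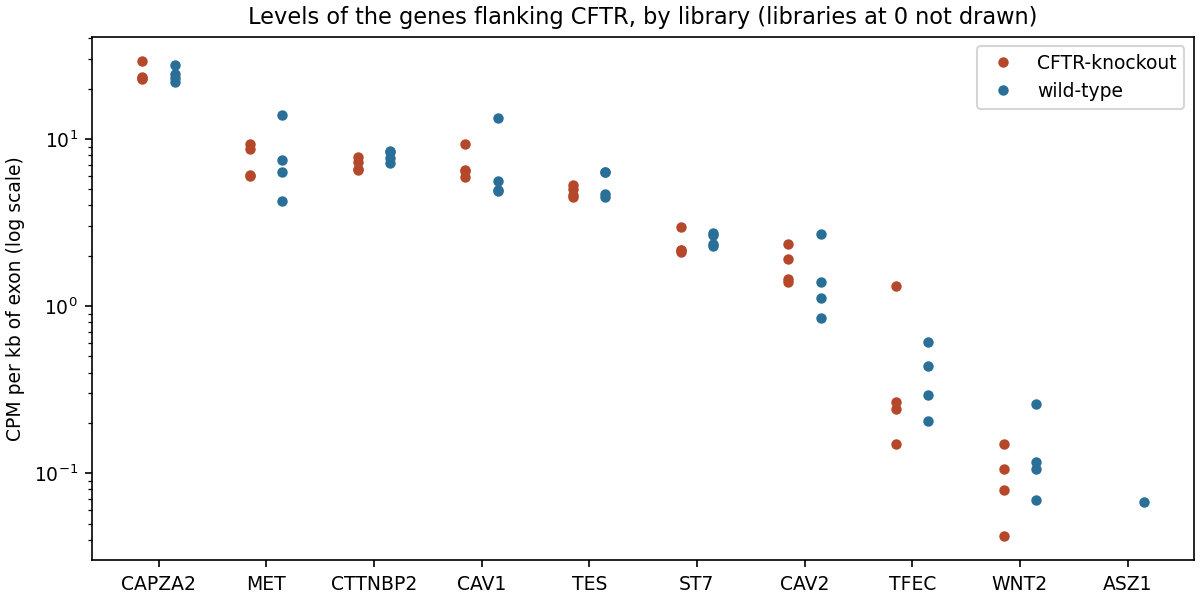
CPM per kb of exon on a log scale for the 10 neighbours in order of their mean over 8 libraries, with 4 knockout libraries left of 4 wild-type libraries in each pair. CAPZA2 stands above the other genes in both groups, and ASZ1 has a single point because the other 7 libraries had no read.

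The question of whether the change reached farther along the chromosome was addressed with the genes around CFTR. Within 1 Mb of CFTR 8 genes other than CFTR were tested, and within 2 Mb 10, which were the 9 members and LSM8. None of them had an unadjusted p under 0.05 by edgeR, which was the case for 11.2% of all genes. Within 5 Mb, 36 genes were tested and 3 had an unadjusted p under 0.05 (8.33%), each higher in knockout piglets, and 0 passed the adjusted test of edgeR. The median log2 fold change within 5 Mb was 0.04, against 0.01 for all genes. These 3 genes, named after their values were seen, were FEZF1, PPP1R3A and ZNF277.

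FEZF1, a zinc finger transcription factor needed for olfactory neuron development in mice, averaged 282 ± 25.7 CPM in knockout and 217 ± 30.7 CPM in wild-type piglets (SD, n = 4 each). Its log2 fold change was 0.38 ± 0.12 at a distance of 3.74 Mb from CFTR (edgeR adjusted p = 0.372). ZNF277, a zinc finger protein 4.49 Mb away, averaged 62.8 ± 7.02 CPM in knockout and 43.2 ± 4.32 CPM in wild-type piglets (SD, n = 4 each). Its log2 fold change was 0.54 ± 0.10 (edgeR adjusted p = 0.326), and DESeq2 called it (adjusted p = 0.00199). The groups did not overlap in these 2 genes, which is 5.56% of the 36 tested within 5 Mb, against 5.81% of all tested genes. PPP1R3A, a glycogen-associated phosphatase subunit, was rare, at 0.488 ± 0.266 CPM in knockout and 0.145 ± 0.127 CPM in wild-type piglets (SD, n = 4 each, edgeR adjusted p = 0.418).

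Over the whole of chromosome 18, 51 of 333 tested genes other than CFTR had an unadjusted p under 0.05 by edgeR (15.3%, against 11.2% of all genes), 29 higher and 22 lower in knockout piglets. The groups did not overlap in 28 (8.41%, against 5.81%), and none passed the adjusted test of edgeR. The difference of these shares was not tested. DESeq2 called 7 of them, against 1.41% of all genes, and limma called LRRN3 (adjusted p = 0.0434). These 7, named after their values were seen, lay between 4.49 and 22.61 Mb from CFTR. The higher ones were ZNF277 and the adenylyl cyclase gene ADCY1, and the lower ones were LRRN3, GPR37, FLNC, HNRNPA2B1 and ABCF2. LRRN3, a leucine-rich repeat protein of neurons 5.61 Mb from CFTR, had the smallest edgeR adjusted p of chromosome 18 after CFTR (0.0913), at 7.04 ± 0.995 CPM in knockout and 18.6 ± 3.76 CPM in wild-type piglets (SD, n = 4 each).

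**Figure D4:**
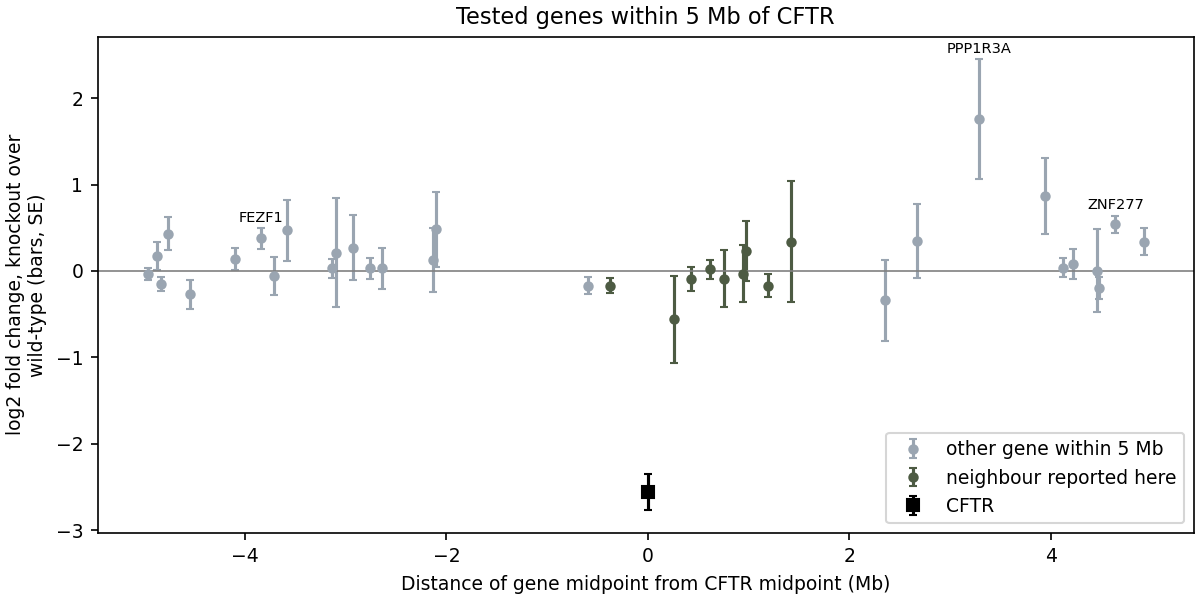
Log2 fold change of knockout over wild-type with its SE for the 36 tested genes within 5 Mb of CFTR and for CFTR, against distance in Mb; named points have an unadjusted edgeR p under 0.05. CFTR at -2.56 stands alone below -1, and the neighbours within 2 Mb carry no named point.

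Members known from particular cell types were set against markers of those types over the 8 libraries, as 6 relations on log2 CPM with exact two-sided permutation p and Benjamini-Hochberg adjustment over the 6. Tissue composition differed between libraries, so genes of a tissue share that source of variation, and each group of 4 is too small for a correlation of its own. CAV1 and CAV2 varied together, with a Pearson r of 0.906 (exact permutation p = 0.000595, adjusted 0.00357) and a Spearman rho of 0.952 (exact permutation p = 0.00114, adjusted 0.00670). Without the 2 libraries farthest from the median of CAV2, wild-type piglets 5 and 12, r was 0.932. CAV1 followed the mean of the endothelial markers with an r of 0.910 (exact permutation p = 0.00819, adjusted 0.0164) and a rho of 0.786 (p = 0.0279, adjusted 0.0419). This relation rested on knockout piglet 18 and wild-type piglet 5, without which r was 0.327 (exact permutation p = 0.458).

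TFEC followed the macrophage markers with an r of 0.934 (exact permutation p = 0.00387, adjusted 0.0116) and a rho of 0.929 (p = 0.00223, adjusted 0.00670). After removal of knockout piglet 18 and of wild-type piglet 12, the libraries farthest from the median of the markers, r was 0.820 (exact permutation p = 0.0472). The adjusted p of r was 0.0619 without knockout piglet 18 alone (r = 0.805) and 0.0595 without wild-type piglet 5 alone (r = 0.930), by the same exact permutation test. WNT2 followed the fibroblast markers in rank, with a rho of 0.857 (exact permutation p = 0.0107, adjusted 0.0214), but not by Pearson's r at 0.651 (exact permutation p = 0.1199, adjusted 0.144). Leaving out both knockout piglet 18 and wild-type piglet 5 gave an r of 0.623. Without knockout piglet 18 alone r was 0.870, and without wild-type piglet 5 alone 0.678 (adjusted exact permutation p = 0.0524 for each). Between the groups, 7 of 8 tested fibroblast markers had a positive log2 fold change (median 0.67) and none passed, while WNT2 was negative. The relation of MET with epithelial markers did not pass (r = -0.036, exact permutation p = 0.915, adjusted 0.915; rho = -0.214, p = 0.619, adjusted 0.619), and r was -0.202 after removal of knockout piglet 18 and of wild-type piglet 23. Of 10 tested epithelial markers, 8 were negative in log2 fold change and none passed. Among them 2 were lower at an unadjusted edgeR p under 0.05, against 5.8% of all genes. The 10 tested markers of mature olfactory neurons were all positive in log2 fold change, and none passed. In that list 3 were higher at an unadjusted edgeR p under 0.05 (5.4% of all genes), and the groups did not overlap in 1 (5.81% of all genes). CTTNBP2 had a negative r with their mean that did not pass (r = -0.651, exact permutation p = 0.0629, adjusted 0.0944; rho = -0.619, p = 0.115, adjusted 0.138). Without knockout piglet 21 and wild-type piglet 5 that r was -0.193, and without wild-type piglet 12 alone it was -0.877 (adjusted exact permutation p = 0.0214).

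The genes most like each member were taken as the 3 with the highest Pearson r of log2 CPM over the 8 libraries, among up to 12220 named genes with a mean of at least 1 CPM. These values describe 8 libraries, carry no test and are not given without single libraries. Knockout piglet 18 stood apart within its group in ST7, CAPZA2, CAV1 and TFEC, and wild-type piglet 5 in CAV1. The part of these libraries in the r values was not tested. For CTTNBP2 they were the semaphorin receptor PLXNB1 (0.972), EFCAB5 (0.959) and PDCL2 (0.953). For CAPZA2 they were the ribosomal protein RPS23 (0.990), the membrane metalloprotease MMP14 (0.988) and CTHRC1 (0.978), a secreted protein of collagen-producing cells. CAV1 was most like the mitotic gene HMMR (0.978), PID1 (0.975) and TM4SF1 (0.974), a tetraspanin-like protein of endothelium. CAV2 was most like PRICKLE1 (0.977), the lysozyme gene LYZ (0.972) and the anion exchanger SLC26A7 (0.970), and not most like CAV1 by this rule.

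MET was most like DENND6A (0.968), TOR1AIP1 (0.966) and the adhesion molecule CHL1 (0.963). TES was most like MFSD4A (0.960), the glutathione transferase GSTM3 (0.956) and the cytokine receptor subunit IL12RB2 (0.951), and ST7 most like LYRM2 (0.970), TMEM65 (0.968) and TSPAN11 (0.967). WNT2 was most like the apoptosis inhibitor XIAP (0.986), the histamine-degrading enzyme HNMT (0.982) and SLC15A3 (0.978). TFEC was most like NDNF (0.994), TXNDC5 (0.981) and ZDHHC9 (0.980). No member was among the 3 genes most like another member.

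Partners of the encoded proteins were described in 9 lists of 141 genes, of which 131 were matched to an identifier and 121 tested. None passed the adjusted test of edgeR, and 13 had an unadjusted p under 0.05 (10.7%, against 11.2% of all genes). Of 18 genes that make up the ligand, activators, inhibitors and adaptors of MET, 5 were positive and 13 negative, and the median log2 fold change was -0.04 (0.016 without knockout piglet 18, 0.027 with limma and 0.00075 with sex as a covariate). The phosphatase PTPRJ, which dephosphorylates MET, averaged 104 ± 11.4 CPM in knockout and 76.7 ± 17.4 CPM in wild-type piglets (SD, n = 4 each), which on the log2 scale is 0.44 ± 0.16 (edgeR adjusted p = 0.407). NRP1, a co-receptor, had 0.17 ± 0.07 on that scale (edgeR adjusted p = 0.433) and the adaptor GAB1 0.23 ± 0.14 (edgeR adjusted p = 0.538). In the caveola list 4 of 13 tested genes were positive (median -0.07, -0.14 if knockout piglet 18 was left out, -0.0091 if wild-type piglet 5 was, and 0.012 in the fit with sex). EHD4 and EHD2, membrane-bending ATPases, had log2 fold changes of -0.36 ± 0.19 and -0.30 ± 0.25, and the scaffold protein FLOT1 of -0.09 ± 0.08, with 0 genes at an unadjusted p under 0.05.

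In the list of Wnt secretion, receptors, inhibitors and feedback targets, 20 of 33 tested genes were positive, with a median of 0.10 against 0.01 over all genes. Single libraries moved this median to between 0.031 (without knockout piglet 18) and 0.21 (without wild-type piglet 5). It was 0.054 if knockout piglet 20 was left out and 0.049 if wild-type piglet 9 was. It was -0.0096 with sex as a covariate. In this list 5 genes had an unadjusted p under 0.05, each of them higher in knockout piglets (5.4% of all genes were higher at that p), and 0 passed. The 3 with the smallest p were Frizzled receptors. FZD8 had 22.6, 27.9, 19.5 and 17.4 CPM in knockout piglets 6, 18, 20 and 21, against 17.2, 14.4, 14.3 and 13.2 CPM in wild-type piglets 5, 9, 12 and 23, which on the log2 scale is 0.56 ± 0.16 (edgeR adjusted p = 0.356). FZD9 had 49.1, 28.8, 29.8 and 43.9 CPM in knockout piglets, against 23.8, 21.2, 28.8 and 15.8 CPM in wild-type piglets in the same order, which on the log2 scale is 0.76 ± 0.23 (edgeR adjusted p = 0.371). In FZD8 and FZD9 the 4 knockout values lay above the 4 wild-type values, by a small margin in both, and 5.81% of all genes did not overlap in either direction. FZD5 had 0.67 ± 0.26 on the log2 scale (edgeR adjusted p = 0.419) and overlapped between the groups. The other tested Frizzled genes also overlapped. Of these, FZD1, FZD2, FZD6 and FZD10 were negative (-0.07 to -0.02 on the log2 scale), and FZD3, FZD4 and FZD7 were positive (0.1 to 0.39).

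Of the other Wnt ligands, 12 of 18 were tested and 7 were positive. Their median was 0.08, and it turned negative without knockout piglet 21 (-0.024), wild-type piglet 9 (-0.0073) or wild-type piglet 12 (-0.013) and with sex as a covariate (-0.072). WNT8B averaged 0.208 ± 0.140 CPM in knockout and 0.602 ± 0.271 CPM in wild-type piglets (SD, n = 4 each, edgeR adjusted p = 0.419). WNT6 had a log2 fold change of -0.62 ± 0.38 and WNT3A of 0.45 ± 0.30, and neither passed. Among the partners of CTTNBP2, 5 of 12 tested genes were positive (median -0.04, and -0.081 to -0.016 without single libraries). Cortactin itself, CTTN, the actin-branching regulator bound by CTTNBP2, had 157, 174, 169 and 162 CPM in knockout piglets 6, 18, 20 and 21, against 183, 193, 186 and 193 CPM in wild-type piglets 5, 9, 12 and 23. The groups did not overlap, which was the case for 5.81% of all tested genes (3.36% with knockout lower). The log2 fold change of CTTN was -0.19 ± 0.07 (edgeR adjusted p = 0.406). STK25 and PPP2CA, a kinase and a phosphatase subunit of the STRIPAK complex, had log2 fold changes of -0.17 ± 0.08 and -0.18 ± 0.10.

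The list of actin capping and TES partners was positive in 5 of 17 tested genes (median -0.08, and -0.14 without knockout piglet 18). CRACR2A, on this list at -0.36 ± 0.16, is not an established partner of capping protein or TES. ENAH, a filament elongation factor, was at 0.28 ± 0.15 and CARMIL2, a regulator of capping protein, at -0.26 ± 0.15. The list of MITF family factors and lysosome genes was positive in 9 of 11 (median 0.25, and 0.048 without knockout piglet 18), with the lysosomal channel MCOLN1 at 0.25 ± 0.09 and the protease CTSD at 0.36 ± 0.14 among the genes at an unadjusted p under 0.05. GPNMB, a glycoprotein of macrophages and osteoclasts, had 18.6 CPM in knockout piglet 18, against 3.55 to 4.63 CPM in the other knockout and 3.14 to 5.03 CPM in the wild-type libraries. The part of macrophage and osteoclast content in this list was not tested. Germline partners of ASZ1 were matched for 8 of 13 genes and tested for 4, which were rare. DDX4, a germ-cell helicase, averaged 0.307 ± 0.0650 CPM in knockout and 0.553 ± 0.185 CPM in wild-type piglets (SD, n = 4 each, edgeR adjusted p = 0.435), TDRD1 had a log2 fold change of 0.65 ± 0.64 and TDRD9 of 0.39 ± 0.42.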

How the data were processed

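Gene-level read counts of 8 libraries were deposited by the authors as raw counts without normalization, in a table laid out as featureCounts output per the file headers. The submitters' processing notes name STAR 2.4.0, HTSeq, Subread 1.5.0-p3 with featureCounts, DESeq2 and FastQC, with no role or order. Strand setting and genome build are not given in the sources used here. The 25880 pig genes were kept (rows outside them took at most 0.001821% of a library), and 14857 had a symbol. Exon length came from the same table.

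Counts were fitted with edgeR 4.0.16 in R 4.3.3 (TMM, default filter on low counts, quasi-likelihood test, genotype as factor). Benjamini-Hochberg adjustment at 0.05 ran over all 17175 genes tested. Standard errors and 95% intervals came from the F statistic. CPM were scaled by TMM, and correlations used log2 CPM with a prior count of 2. Alternatives were DESeq2 1.42.0, limma 3.58.1 with voom and sample quality weights, other scalings and filters, sex as a covariate (from reads of EIF1AY and KDM5D) and leaving out libraries. On simulated data with known changes, a larger share of the calls of DESeq2 than of edgeR or limma fell on unchanged genes. The simulated counts used the dispersions that edgeR had estimated, and no library in them was made to stand apart.

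The members, the partner and marker lists and the tests were chosen with earlier results of these data known. Named genes were CFTR and the members, the 3 partners with the smallest p in each list, the 3 genes most like each member, and any tested gene with a symbol within 2 Mb of CFTR at an unadjusted p under 0.05, of which there were 0. Others are marked as named after their values were seen.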

Additional observations from a re-analysis of the deposited data

Results flagged for a closer look

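In 20 groups of 4 libraries (9 neighbours and CFTR in each genotype), the highest or lowest library was examined by Dixon's criterion at 95%. That criterion sets the gap to the nearest library against the range of all 4. Chance picks about 1 in 20 separate groups, but these groups were genes read in the same 8 animals, so that rate does not measure their number. The criterion picked 6 groups, each for a high library, which was knockout piglet 18 or wild-type piglet 5. Knockout piglet 18 stood apart from the other 3 knockout piglets in ST7 (19.2 CPM, against 13.4 to 13.9), CAPZA2 (84.9 CPM, against 65.6 to 67.2), CAV1 (25.8 CPM, against 16.3 to 17.9) and TFEC (1.25 CPM, against 0.142 to 0.251). Wild-type piglet 5 stood apart from the other 3 wild-type piglets in CAV1 (36.8 CPM, against 13.4 to 15.5) and CFTR (56.6 CPM, against 34.0 to 36.6). These are the libraries with the highest bone and endothelial marker sums, and the part of tissue composition in these values was not tested.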

How the results depend on the processing

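The count of members called was 0 under each of 16 alternatives, as was the count of partners called. edgeR called 1 gene of the whole table, CFTR. DESeq2 called 246, limma 11, the fit without knockout piglet 18 and wild-type piglet 5 called 2, and leaving out single libraries gave 0 to 16, with 16 when wild-type piglet 12 was left out, 2 for wild-type piglet 5, 9 or 23 and 0 for knockout piglet 6 or 20. Within 5 Mb of CFTR DESeq2 called 1 gene. Signs turned in 5 members. With limma, TFEC was -0.44, CAV1 0.16, MET 0.23 and CAPZA2 -0.0022. Without knockout piglet 18 and wild-type piglet 5, TFEC was -0.49, CAV1 0.28, MET 0.40 and CAPZA2 -0.011. With sex as a covariate, where both libraries with Y-linked reads were wild-type, CAV2 was -0.21, CAPZA2 -0.046, WNT2 -1.01, CAV1 -0.43 and MET -0.43. By these values that fit set the knockout libraries against only wild-type piglets 5 and 23. Piglet 5 was the highest library in CAV2, WNT2, CAV1 and MET. Without piglet 5 alone, CAV2 was 0.66, WNT2 -0.061, CAV1 0.44 and MET 0.31, so both settings turn on the same animal. Leaving out single libraries, TFEC ranged from -0.81 to 0.64, CAV1 from -0.20 to 0.44, MET from -0.30 to 0.31 and CAPZA2 from -0.076 to 0.083. The cause was not tested. CTTNBP2, ST7, TES and WNT2 stayed negative in each alternative that could be fitted; WNT2 and TFEC were removed by the filter at 1 CPM. Of 6 relations, 3 passed by Pearson's r, and by Spearman's rho WNT2 with fibroblast markers passed as well. By Pearson's r, 1 to 4 passed without single libraries, with 1 without knockout piglet 18 or wild-type piglet 5. The r of MET with epithelial markers then ranged from -0.471 to 0.304. Without exon length, CAV1 and TES changed places in the order of levels, as did TFEC and WNT2. No paired analysis was possible because the piglet numbers of the groups share no number. ASZ1, TFEC and WNT2 had the fewest reads, and each group held 4 animals.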
